A study of Mus musculus with 12 samples.

Results

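The SREBP lipogenesis and cholesterol synthesis genes are a list of 38 mouse genes that make fatty acids, triglycerides and cholesterol or control their synthesis. They were chosen by name, and 31 of the 38 had a probe set in the deposited table of 15780 named genes. All 31 passed the filter on dim probe sets, a mean over the 12 arrays of at least 5.57 on the log2 scale, which left 9496 genes for testing. The lowest mean of a member was 7.22. Acaca, Acacb, Agpat2, Acat2, Hmgcs1, Idi1 and Fdps were not analysed here.

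The samples were primary hepatocytes, the main cell type of liver tissue, from male C57BL/6J mice aged 8 weeks, either with the gene for the deadenylase subunit CNOT6L knocked out (KO) or wild type (WT). Every preparation of cells was divided into a part for total RNA (Input) and a part for RNA pulled down with an antibody to CNOT6L (IP), with KO cells as negative control for the antibody. The 4 groups, WT IP, KO IP, KO Input and WT Input, had 3 Affymetrix Mouse Genome 430 2.0 arrays each. The sources used here do not say how the knockout was made or whether the 3 replicates of a group came from separate animals, so the p-values measure the spread between these samples.

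SREBP proteins are transcription factors made as precursors in the membrane of the endoplasmic reticulum. When sterols are low they are carried to the Golgi, cut, and released to the nucleus, where they switch on the genes of cholesterol and fatty acid synthesis. In liver, SREBP-1c answers mainly to insulin and SREBP-2 mainly to cholesterol, and the carbohydrate-responsive factor ChREBP, the product of Mlxipl, acts beside SREBP-1c on lipogenic genes. CNOT6L is part of the CCR4-NOT complex, which removes poly(A) tails from mRNAs, so the precipitate is meant to hold mRNAs in contact with that complex.

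The promoters of 4 regulators are shown because the levels of these genes are given below and because SREBP, ChREBP and their partner NF-Y bind short DNA elements. Each line gives the 150 bases before a RefSeq gene start on the gene's strand, from GRCm38.p6. Capitals mark a sterol regulatory element searched as TCACNCCAC, an E-box searched as CACGTG or an NF-Y box searched as CCAAT, on either strand.
Srebf1, chr11:60210472-60210621, minus strand: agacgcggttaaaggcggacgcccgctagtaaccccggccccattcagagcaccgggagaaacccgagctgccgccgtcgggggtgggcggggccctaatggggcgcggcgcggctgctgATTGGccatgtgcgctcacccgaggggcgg
Srebf2, chr15:82147119-82147268, plus strand: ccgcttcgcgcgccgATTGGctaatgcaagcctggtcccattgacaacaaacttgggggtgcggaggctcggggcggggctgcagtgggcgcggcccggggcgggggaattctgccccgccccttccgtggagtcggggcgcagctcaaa
Mlxipl, chr5:135106741-135106890, plus strand: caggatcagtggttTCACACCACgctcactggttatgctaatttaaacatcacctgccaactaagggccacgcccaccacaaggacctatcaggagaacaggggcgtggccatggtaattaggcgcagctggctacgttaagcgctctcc
Mlxipl, chr5:135089740-135089889, plus strand: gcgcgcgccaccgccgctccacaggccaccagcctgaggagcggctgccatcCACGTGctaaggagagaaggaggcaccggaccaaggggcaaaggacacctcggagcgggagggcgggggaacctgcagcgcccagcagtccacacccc
Insig1, chr5:28071262-28071411, plus strand: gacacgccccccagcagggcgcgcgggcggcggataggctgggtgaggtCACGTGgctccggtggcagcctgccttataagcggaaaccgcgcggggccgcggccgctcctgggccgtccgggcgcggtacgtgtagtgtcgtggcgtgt

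Both Mlxipl starts of the table are shown, 1 with the sterol element and 1 with the E-box. Of the 3 Srebf1 starts, the printed one is the start with a match within 150 bases. Promoters reaching from 250 bases before to 50 bases after the start were found for 25 of the 31 measured members, 37 promoters in all. An NF-Y box was present in 64.9% of these promoters, against 37.4% of all 32851 promoters. An E-box was present in 18.9%, against 7.15%, and the sterol regulatory element in 2.7%, a single Mlxipl promoter, against 1.24%. A match describes the letters and is not evidence of binding, and the motifs did not overlap in the printed lines. A single pattern was searched for each element, so lack of a match is not evidence that a promoter lacks the element. The arrays measured RNA and not the activity of these promoters.

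On the arrays, 7 of 8 listed hepatocyte markers were measured and all 7 passed the filter, with a mean of 10.68 to 12.45 per array. The lists for Kupffer cells, endothelium, stellate cells, cholangiocytes and adipocytes had means of 4.96 to 6.60 per array. Of their measured markers 2 of 6, 2 of 6, 3 of 6, 2 of 4 and 1 of 3 passed the filter, in that order. Some of these were bright, with WT Input means of 11.77 for the Kupffer cell marker Cd68 and 9.79 for the adipocyte marker Fabp4. RNA of other cell types in the samples was not tested. The Cnot6l probe set read 9.12, 9.23 and 9.34 in KO Input, against 8.44, 9.51 and 9.11 in WT Input. Arrays labelled KO thus gave no lower Cnot6l signal, and since the position of its probes relative to the deletion is not given, it checks nothing about the labels, on which the directions below rest. Array medians ran from 6.31 to 6.45. From Input to IP the bacterial poly-A control transcripts were 4.47 to 5.99 log2 units higher over the 6 preparations, and the excess of the 3′ over the 5′ Gapdh probe set grew by 0.85 to 1.95 units. The hybridisation control probe sets were also higher in IP, by 2.45 to 5.17 units over the 6 preparations. These controls moved with every difference between IP and Input given here, and their part in these differences was not tested.

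**Figure D1:**
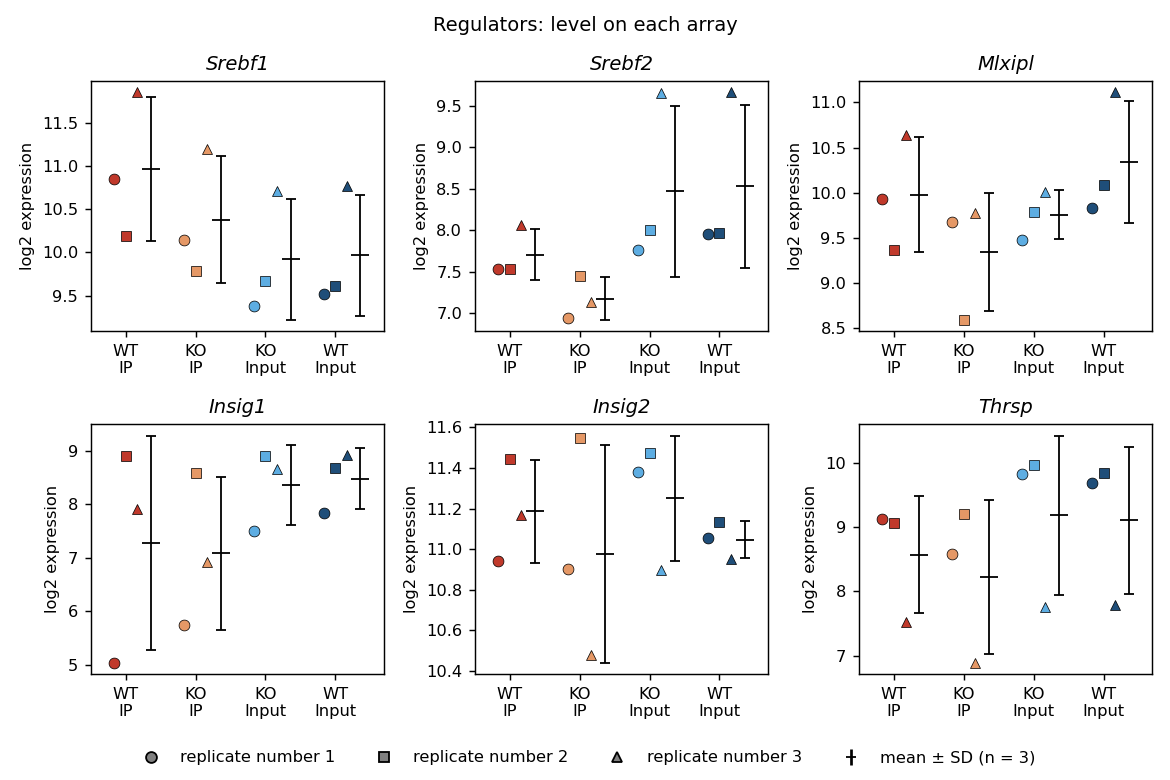
Level of the 6 regulators on each array (vertical axes, log2 expression; scales differ between panels) in WT IP, KO IP, KO Input and WT Input, with a symbol for each replicate number and a bar for the mean ± SD (n = 3). Srebf1 is highest at number 3 in all 4 groups, Thrsp is lowest there, and Srebf2 reads 9.65 and 9.66 in the 2 number 3 inputs, against 7.76 to 8.01 in the other inputs.

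The question put to the lipogenic and sterol genes was whether their transcripts came down with CNOT6L more than in the negative control. This is the specific enrichment, the IP minus Input difference of WT less that of KO, tested with limma and adjusted by Benjamini-Hochberg over all genes. No measured member was called, 0 higher and 0 lower of 31 at an adjusted p under 0.05, beside 0.0105% of all genes called higher and 0% lower. Taking unadjusted p-values under 0.05 gave 0 members, beside 1.83% of all genes higher and 0.147% lower. The members' differences ran from -0.32 for Fdft1, which encodes squalene synthase, to 0.57 for Elovl6, a fatty acid elongase. Their median was 0.08, beside 0.05 for all genes tested.

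The replicate block, a fit with the preparation as block, also called 0 members, beside 0.0211% of all genes higher and 0% lower. Its 95% intervals, with the preparation as block, lay below a 2-fold specific enrichment, a log2 value of 1, for 18 of the 31 members, and within 2-fold in both directions for 14. The matching shares of all genes with the block are not given here, so these counts do not set the members apart. Without the block 0 of 31 intervals lay within 2-fold in both directions, where 6.53% of all genes' intervals did. Of these 31 intervals 4 had an upper bound below 1, and the highest bound, that of Insig1, was 2.88. Without the block, most intervals thus held both no enrichment and a 2-fold one. With the number as block within each fraction it was 0 members, beside 0.358% of all genes higher.

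The regulators all had positive specific enrichment, 6 of 6 with a median of 0.42, where 55.8% of all genes were positive. After quantile normalization 5 of the 6 stayed positive. Srebf1, which encodes the SREBP-1 precursors, read 10.86, 10.19 and 11.86 in WT IP, 10.15, 9.78 and 11.20 in KO IP, 9.38, 9.66 and 10.72 in KO Input, and 9.51, 9.61 and 10.77 in WT Input. The inputs of the same number were nearly alike in both genotypes, the IPs were higher, and number 3 was the highest in each group. The same-number specific enrichments of Srebf1 were 0.57, 0.46 and 0.60, with a fitted value of 0.54 ± 0.77 (SE; 95% interval -1.15 to 2.23), an adjusted p of 1 by limma and 0.9999 with the replicate block. The replicate block, which pairs each IP with its Input, gave an SE of 0.33 and a 95% interval of -0.20 to 1.28. The fitted value was 0.097 without WT IP replicate 3 and 0.95 without KO IP replicate 3.

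Srebf2, which encodes the SREBP-2 precursor, read 7.53, 7.53 and 8.06 in WT IP, 6.94, 7.45 and 7.14 in KO IP, 7.76, 8.01 and 9.65 in KO Input, and 7.96, 7.97 and 9.66 in WT Input. The precipitates of WT and KO did not overlap, and those of KO lay below all inputs. Its same-number specific enrichments of 0.39, 0.12 and 0.91 averaged 0.48 ± 0.77 (SE). Insig2, which encodes a membrane protein that holds SREBP in the endoplasmic reticulum, had values of 0.37, 0.24 and 0.64, averaging 0.41 ± 0.45 (SE), the smallest unadjusted p of all members (0.372). Its levels were 10.94, 11.45 and 11.17 in WT IP, 10.90, 11.55 and 10.48 in KO IP, 11.38, 11.47 and 10.90 in KO Input, and 11.06, 11.13 and 10.95 in WT Input, with every group overlapping the others. Without KO IP replicate 3 the specific enrichment of Insig2 was 0.17, and without KO IP replicate 2 it was 0.70.

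Insig1, the paralogue of Insig2 and itself an SREBP target, varied widely between precipitates. Its levels were 5.03, 8.90 and 7.91 in WT IP, 5.74, 8.59 and 6.92 in KO IP, 7.50, 8.91 and 8.67 in KO Input, and 7.84, 8.68 and 8.93 in WT Input. The number 1 precipitates were low in both genotypes, and the specific enrichments of Insig1 had both signs, at -1.05, 0.54 and 0.73. Thrsp, which encodes the lipogenic regulator Spot 14, gave 0.69, -0.015 and 0.60, and Mlxipl gave -0.092, 0.47 and -0.23.

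The enzymes showed no common direction in specific enrichment. Of the fatty acid synthesis genes 4 of 6 were positive (median 0.07), and of the triglyceride assembly genes 4 of 5 (median 0.15). The mevalonate genes Mvk, Pmvk and Mvd, which turn mevalonate into its diphosphate and then into isopentenyl diphosphate, had 1 of 3 positive. The sterol enzymes, which lead from farnesyl diphosphate through squalene to cholesterol, had 4 of 10 positive and a median of -0.12. After quantile normalization the sterol enzymes again had 4 of 10 positive, triglyceride assembly had 3 of 5, and the members' median was 0.04 against -0.03 for all genes.

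Among single enzymes, Elovl6 had specific enrichments of 1.51, 0.37 and -0.17, with a fitted 0.57 ± 0.80 (SE) that was 0.027 without WT Input replicate 1 and 0.9963 without WT Input replicate 3. Lpin1, a phosphatidate phosphatase, had -0.058, 1.11 and 0.64 (0.57 ± 0.89, SE), which was -0.17 without KO IP replicate 3. Sqle, the squalene epoxidase, had 0.39, -0.056 and 0.65, and Fdft1 had 0.051, -0.53 and -0.49. The fitted value of Sqle was 0.037 without WT IP replicate 3, and that of Fdft1 was 0.035 without WT IP replicate 2. In all 3 numbers 8 members were positive, Srebf1, Srebf2, Insig2, Fasn, Me1, Pmvk, Sc5d and the cholesterol carrier gene Stard4, which is 25.8% of the members, where 21.4% of all genes were. Acly, Nsdhl and Dhcr7 were negative in all 3, 9.68% of the members, where 13.7% of all genes were.

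**Figure D2:**
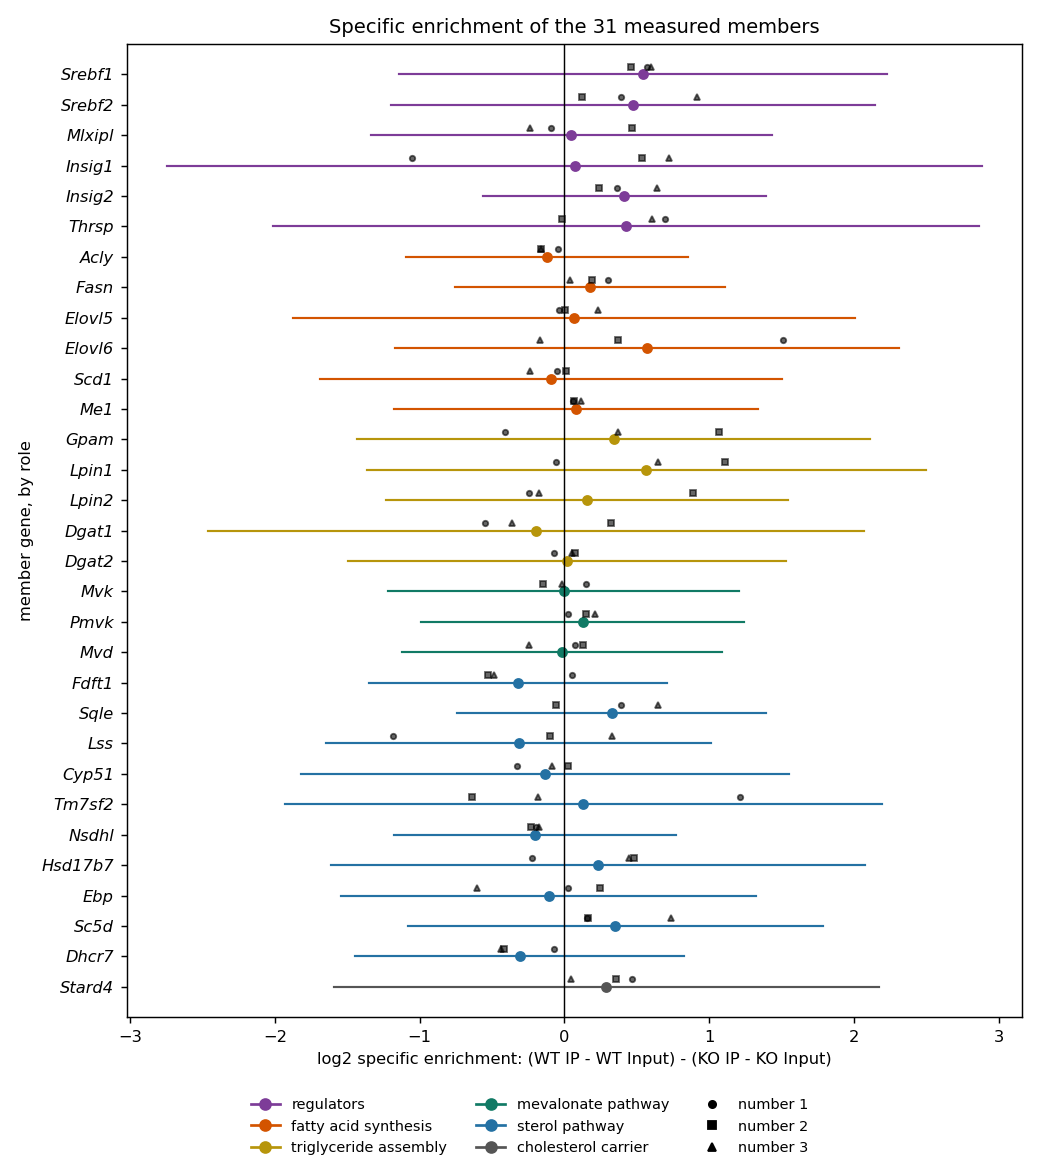
Specific enrichment of the 31 measured members (horizontal axis, log2 units), with dots for the fitted value, lines for its 95% interval from limma on all 12 arrays, colours for the role, and small black symbols for the 3 same-number values. The intervals are from the fit without a block, which does not use the pairing. Every interval crosses 0, and the fitted values lie between -0.32 and 0.57.

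WT IP against WT Input gives the enrichment before the control is taken into account. By limma 0 of 31 members were called in either direction, beside 0.105% of all genes called higher and 0% lower. Unadjusted p-values under 0.05 were found for 0 members, beside 4.58% of all genes higher and 6.03% lower. The members' median was -0.16, beside -0.11 for all genes, with 10 of 31 positive (32.3%, where 41.6% of all genes were). The order turned after quantile normalization, to -0.024 for the members and -0.044 for all genes, and with the filter at the 60th percentile, to -0.16 and -0.21. With no filter the median of all genes was 0.14. Srebf1 had the smallest p, 1.0 ± 0.55 (SE), a 2.00-fold difference with an adjusted p of 0.558, and was higher in 3 of 3 preparations by 1.34, 0.58 and 1.08. With the replicate block Srebf1 was called, at an adjusted p of 0.0388, beside 2.41% of all genes called higher and 4.61% lower. Over the 23 alternatives its adjusted p ran from 0.00561 to 0.983, and its difference from 0.56 without WT IP replicate 3 to 1.40 without WT Input replicate 3. With the number as block within each fraction, a fit that takes only the genotype difference at a number as error, Srebf1 was called higher and Srebf2, Insig1, Acly, Scd1 and Ebp lower (adjusted p = 0.00561 to 0.0499), beside 7.8% of all genes called higher and 15.2% lower. That error leaves out the spread of IP minus Input between numbers that both genotypes share, so these calls do not establish a replicated difference. Insig1 was called with WT differences of -2.81, 0.22 and -1.02, while the others had the same sign in 3 of 3 preparations.

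Fasn, the fatty acid synthase, read 11.05, 10.14 and 10.45 in WT IP, against 10.28, 9.74 and 10.14 in WT Input. The groups overlapped, and Fasn was higher in each precipitate than in its own input, by 0.49 ± 0.30 (SE; adjusted p = 0.597). Acly, which makes the cytosolic acetyl-CoA used for both pathways, read 10.28, 10.42 and 9.80 in WT IP, against 10.63, 11.15 and 10.43 in WT Input. Ebp, a sterol isomerase, read 9.72, 9.67 and 10.42 in WT IP, against 10.54, 10.43 and 11.19 in WT Input. Acly (-0.57 ± 0.32, SE; adjusted p = 0.561) and Ebp (-0.78 ± 0.47, SE; adjusted p = 0.588) were the 2 members whose WT IP and WT Input did not overlap, 6.45% of the members on the lower side, where 7.59% of all genes were. On the higher side it was 0 members, where 7.72% of all genes were. Srebf2 at -0.82 ± 0.54 (SE) and the sterol dehydrogenase gene Nsdhl at -0.48 ± 0.32 (SE) had an adjusted p of 0.618 and 0.619. Without WT Input replicate 3 they were -0.25 and -0.26, and without WT IP replicate 1 Fasn was 0.24. In all 3 preparations of WT, 2 members were higher, 6.45% where 19% of all genes were, and 11 lower, 35.5% where 33% of all genes were.

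KO IP against KO Input gives the background of the precipitation. By limma 0 of 31 members were called, as were 0% of all genes in either direction. At an unadjusted p under 0.05, 0 members were higher and Srebf2 was lower, beside 2.97% and 8% of all genes. The members' median was -0.27, beside -0.21 for all genes, and 8 of 31 were positive (25.8%, where 34.1% of all genes were). Quantile normalization moved the median of all genes by 0.16 in this comparison, to -0.04, and the members' median became -0.085. The members are bright, with a median percentile of 88.5 among all genes, and the order depended on the filter. With the filter at the 60th percentile the members' median was -0.27 and that of all genes -0.29, and with no filter they were -0.27 and 0.12. In all 3 KO preparations 4 members were higher, 12.9% where 12.8% of all genes were, and 14 lower, 45.2% where 35.3% were.

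Srebf2 had the smallest p in this comparison, at -1.30 ± 0.54 (SE; adjusted p = 0.418), with same-number differences of -0.82, -0.56 and -2.52 and no overlap between KO IP and KO Input. The last value rests on the number 3 input, and without KO Input replicate 3 the difference was -0.71. Dgat2, a triglyceride synthase, also did not overlap, at 10.43, 9.77 and 10.43 in KO IP against 10.61, 10.57 and 11.14 in KO Input. Both were lower, 6.45% of the members, where 10.1% of all genes were. Fdft1 did not overlap on the higher side, 3.23% of the members where 5.31% of all genes were, with 11.49, 10.90 and 11.22 in KO IP against 10.74, 10.79 and 10.59 in KO Input (0.50 ± 0.33, SE; adjusted p = 0.625).

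Thrsp was called lower in KO IP with the replicate block, at an adjusted p of 0.0392, beside 5.28% of all genes called lower and 0.727% higher. It read 8.58, 9.21 and 6.88 in KO IP, against 9.83, 9.97 and 7.75 in KO Input, a difference of -0.96 with same-number values of -1.25, -0.77 and -0.87. The groups overlapped, with number 3 low in both, and without the block the adjusted p was 0.705. The block together with quantile normalization lost the call (-0.72, adjusted p = 0.126). Over the 23 alternatives it ran from 0.0142 to 0.961, and without KO IP replicate 3 the difference was -0.29. Gpam, which starts triglyceride assembly, read 7.16, 6.18 and 6.41 in KO IP, against 8.61, 7.09 and 7.07 in KO Input (-1.01 ± 0.57, SE; adjusted p = 0.555). Gpam was high in the number 1 input of both genotypes, at 8.61 in KO Input and 9.05 in WT Input, and without KO Input replicate 1 its difference was -0.50. With the number as block within each fraction, 6 members were called lower, Srebf2, Insig1, Thrsp, Acly, Gpam and Stard4 (adjusted p = 0.00659 to 0.0435), beside 17.8% of all genes called lower and 4.52% higher. The error of this fit leaves out the spread of IP minus Input between numbers that both genotypes share. Without any block, Insig1 at -1.28, Ebp at -0.67 and Acly at -0.45 did not pass (adjusted p = 0.649, 0.634 and 0.644). Insig1 was -0.60 without KO IP replicate 1, Ebp -0.38 without KO Input replicate 3 and Acly -0.26 without KO Input replicate 2.

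**Figure D3:**
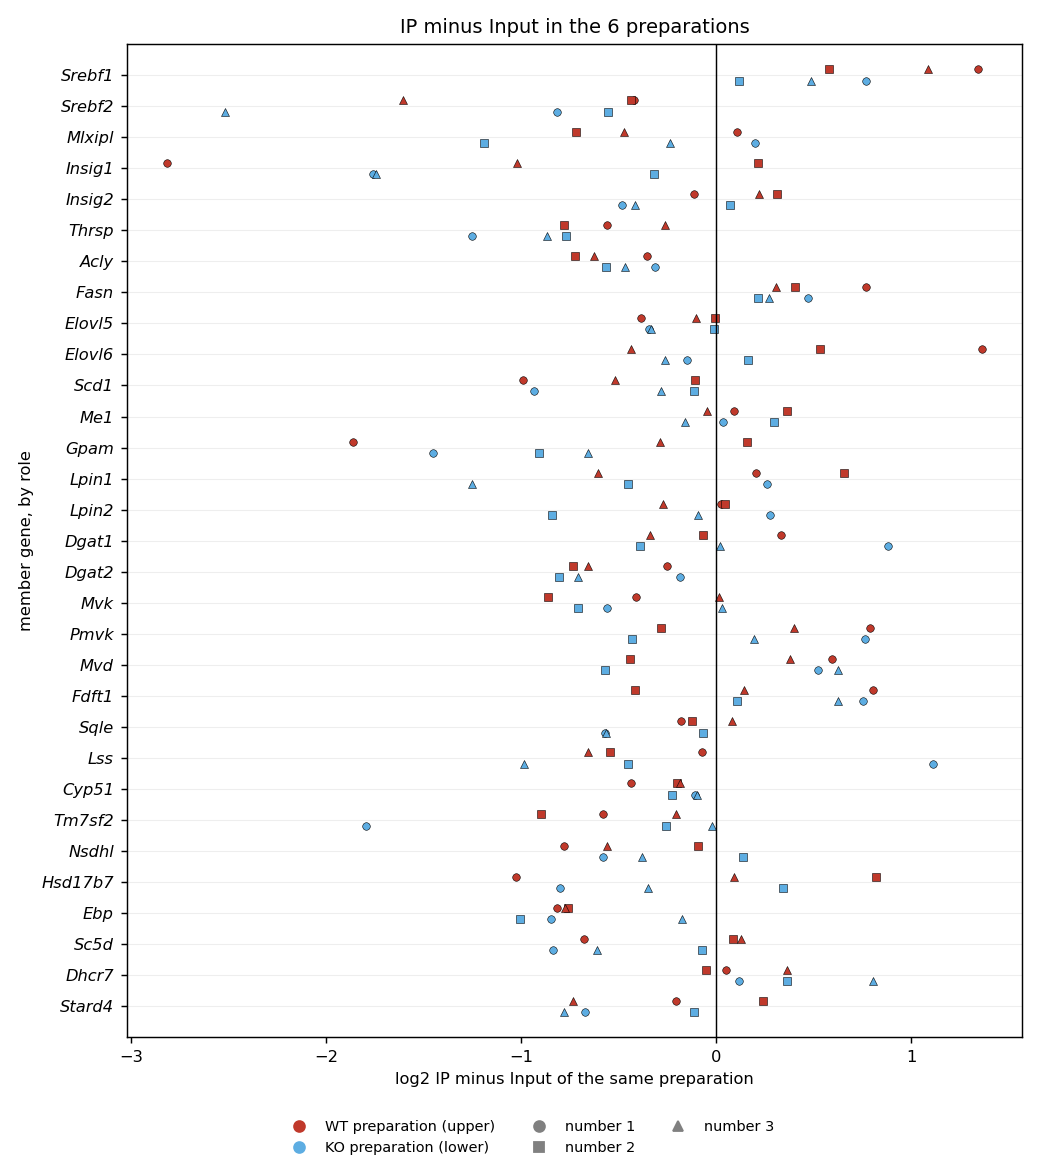
IP minus Input of the same preparation for each measured member (horizontal axis, log2 units), with WT preparations in the upper and KO preparations in the lower row of each gene and symbols for the replicate number. Srebf1 and Fasn lie right of 0 in all 6 preparations, and Srebf2, Thrsp, Acly and Scd1 lie left of 0 in all 6.

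Over both genotypes, 2 members had a higher IP than Input value in all 6 preparations and 9 a lower one. Srebf1 (0.12 to 1.34) and Fasn (0.21 to 0.77) were the 2 higher, 6.45% of the members, where 6.54% of all genes were. Srebf2, Thrsp, Acly, Elovl5, Scd1, Dgat2, Cyp51, Tm7sf2 and Ebp were the 9 lower, 29% of the members, where 23.3% of all genes were. After quantile normalization 4 members were lower in all 6 (Srebf2, Thrsp, Acly and Scd1, where 14.8% of all genes were) and 4 higher (Srebf1, Fasn, the malic enzyme gene Me1 and the sterol reductase gene Dhcr7, where 9.73% were). The 2 SREBP genes, singled out from these counts, lay on opposite sides in every preparation and under both scalings, with Srebf2 at -2.52 to -0.42. By limma neither was called in WT or KO (adjusted p = 0.558 and 0.803 for Srebf1, 0.618 and 0.418 for Srebf2). With the replicate block Srebf2 was not called either (adjusted p = 0.214 in WT and 0.0821 in KO). Scd1, the stearoyl-CoA desaturase, was lower by 0.11 to 0.99, and its 2 lowest values were the number 1 preparations (-0.99 in WT and -0.93 in KO).

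WT IP against KO IP sets the precipitates side by side, and it shares arrays with the comparisons above. By limma 0 of 31 members were called, beside 0.253% of all genes called higher and 0% lower. With the replicate block 0 members were called, beside 2.33% of all genes higher and 0.126% lower. All 6 regulators were positive, also after quantile normalization, with a median of 0.44 beside 0.04 for all genes, of which 54.1% were positive. Srebf2 was the single member whose WT IP lay wholly above its KO IP, 3.23% of the members where 5.44% of all genes were, by 0.53 ± 0.54 (SE). Mlxipl read 9.94, 9.37 and 10.64 in WT IP, against 9.67, 8.60 and 9.77 in KO IP, and was higher in WT in 3 of 3 numbers (0.63 ± 0.45, SE; adjusted p = 0.9997). Srebf1 was higher in 3 of 3 by 0.59 ± 0.55 (SE; adjusted p = 0.9997), and 0.207 was its adjusted p with the replicate block. Without WT IP replicate 3 Srebf1 was 0.14, and without KO IP replicate 2 Mlxipl was 0.26.

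Lpin1 read 9.93, 10.15 and 8.54 in WT IP, against 9.83, 8.98 and 7.19 in KO IP (0.87 ± 0.63, SE; adjusted p = 0.9997). The Lpin1 difference was 0.13 without KO IP replicate 3 and 1.45 without KO IP replicate 1. At every number 7 members were higher in WT IP, Srebf1, Srebf2, Mlxipl, Gpam, Lpin1, Hsd17b7 and Stard4, 22.6% of the members where 20.1% of all genes were. The sterol enzymes were mixed, with 4 of 10 positive and Tm7sf2 at 0.60, and 3 of them were lower at every number. Fdft1 read 11.31, 9.98 and 10.78 in WT IP, against 11.49, 10.90 and 11.22 in KO IP (-0.52 ± 0.33, SE). Cyp51, the lanosterol demethylase, read 8.81, 8.90 and 10.28 in WT IP, against 9.39, 9.53 and 10.69 in KO IP (-0.54 ± 0.55, SE). Dhcr7 had -0.43 ± 0.37 (SE). These 3 were 9.68% of the members where 14.2% of all genes were, and none passed, with adjusted p of 0.9997 without a block and of 0.160 (Cyp51) to 0.398 (Fdft1) with the replicate block. Without KO IP replicate 3 Cyp51 was -0.13 and Dhcr7 -0.15, and without WT IP replicate 2 Fdft1 was -0.16.

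KO Input against WT Input compares the steady-state RNA of the genotypes. In such bulk RNA, fewer cells of a type and less RNA per cell cannot be told apart. No member was called, 0 higher and 0 lower of 31, and 0% of all genes were called in either direction with or without the replicate block. At an unadjusted p under 0.05 it was 0 members, beside 0.0316% of all genes higher and 0.0211% lower. The groups overlapped for every member, where 0.663% of all genes lay wholly higher and 0.958% wholly lower in KO. The members' median was 0.06, beside 0.02 for all genes. Mlxipl had the smallest p, at 9.47, 9.78 and 10.01 in KO Input, against 9.83, 10.09 and 11.11 in WT Input. It was lower in KO in 3 of 3 numbers by 0.35, 0.30 and 1.10, the groups overlapped, and the fitted difference was -0.59 ± 0.45 (SE; 95% interval -1.57 to 0.39, adjusted p = 1). Without WT Input replicate 3 it was -0.20.

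Cyp51 read 9.50, 9.75 and 10.78 in KO Input, against 9.24, 9.10 and 10.47 in WT Input, higher in 3 of 3 numbers by 0.41 ± 0.55 (SE; adjusted p = 1). It was 0.023 without KO Input replicate 3 and 0.84 without WT Input replicate 3. Sqle was higher in 3 of 3 by 0.22, 0.25 and 0.21, Elovl6 by 0.63, 0.13 and 0.36, and Insig2 in 2 of 3. Tm7sf2, a sterol reductase, was lower in 3 of 3 by 0.91, 0.25 and 0.24. Without KO Input replicate 3 Sqle was 0.025 and Elovl6 -0.049, and without KO Input replicate 1 Tm7sf2 was -0.13. In all 3 numbers 5 members were higher, 16.1% as for all genes, and 4 lower, 12.9% where 13% of all genes were. With the number as block 26 of the 31 intervals lay within 2-fold in both directions. Without it 9 did, 29% of the members, where 47.6% of all genes' intervals did. The matching share of all genes with the block is not given here.

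In the inputs, the replicate number set levels apart more than genotype did, for most members as for most genes tested. There, the range of a member's level between numbers had a median of 0.90, while the largest KO minus WT difference at the same number had a median size of 0.33. For 28 of the 31 members the range between numbers was the larger, and for 84.3% of all genes it was. Mlxipl, Fdft1 and Lss, the lanosterol synthase gene, were the 3 exceptions. After removal of group means, arrays of the same number in different groups correlated over the 31 members at 0.54 to 0.95, and those of different numbers at -0.79 to 0.14. Removal of group means itself pulls the second range down where the first is above 0. These correlations are descriptions over genes that share arrays.

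**Figure D4:**
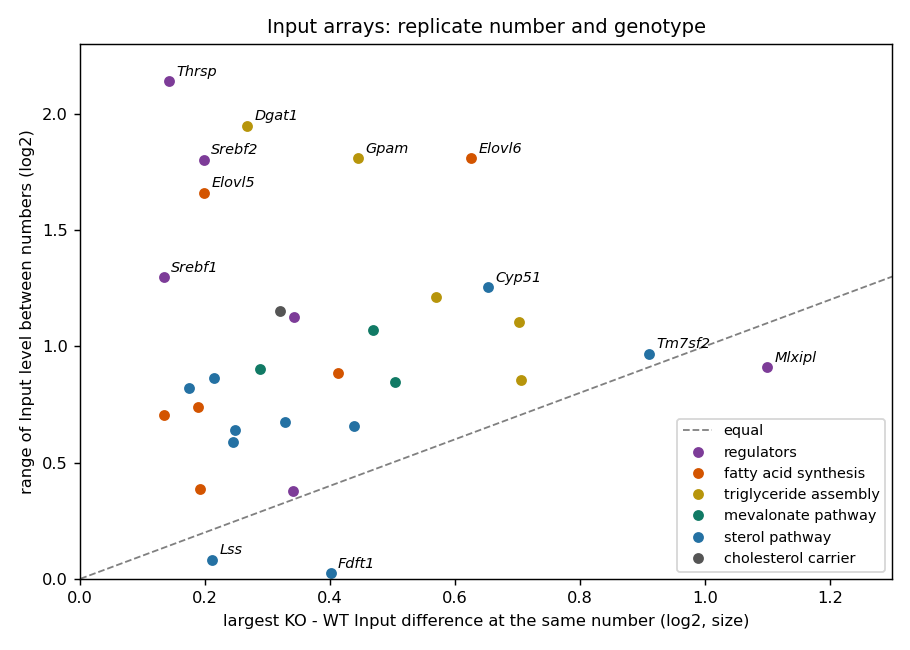
Range of each member's Input level between the 3 replicate numbers (vertical axis, log2 units, mean of both genotypes) against the largest size of its KO minus WT Input difference at the same number (horizontal axis, log2 units), with colours for the role and a dashed line where both are equal. Thrsp, Dgat1, Gpam, Elovl6 and Srebf2 lie highest, with ranges of 1.80 to 2.14, and only Mlxipl, Fdft1 and Lss lie below the line.

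Number 3 was the highest of its group in all 4 groups for 11 members: Srebf1, Mlxipl, Elovl5, Lpin2, Dgat1, Sqle, Cyp51, Tm7sf2, Ebp, Sc5d and Dhcr7. Dgat1, which makes triglycerides from diacylglycerol, read 10.81 and 11.02 in the number 3 inputs of KO and WT, against 8.86 to 9.33 in the other inputs. Elovl5, an elongase of polyunsaturated fatty acids, averaged 12.14 over the number 3 inputs, against 10.48 at number 1. Number 3 was the lowest in all 4 groups for Thrsp, Acly, Me1 and Lpin1. Thrsp averaged 7.77 in the number 3 inputs, against 9.76 and 9.91 at numbers 1 and 2. Number 2 was the highest in all 4 groups for Insig2, Acly, Scd1 and Stard4, and number 1 for Gpam and Mvk. By role, number 3 was the highest in all 4 groups for 6 of 10 sterol enzymes and for 2 of 6 regulators. The matching shares of all genes are not given here, so these counts do not set the members apart from other genes. Fdft1 and Lss hardly differed between numbers in the inputs, with ranges of 0.024 and 0.083. The sources used here do not say what a number stands for.

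Of 22 further genes of these pathways that were listed, 17 were in the table and 16 passed the filter. By limma 0 of the 16 were called in any of the 5 comparisons. With the replicate block, 3 were called between WT IP and WT Input, 1 higher and 2 lower, beside 2.41% of all genes called higher and 4.61% lower. Acsl3, an acyl-CoA synthetase, was higher by 1.28 (adjusted p = 0.0311), while Slc25a1, the mitochondrial citrate carrier, was lower by 1.40 (-1.40, adjusted p = 0.0258) and Fads2, a fatty acid desaturase, by 1.17 (-1.17, adjusted p = 0.0360). Slc25a1 was also called lower in KO IP against KO Input (-1.19, adjusted p = 0.0430), beside 5.28% of all genes. For specific enrichment, KO Input against WT Input and WT IP against KO IP, 0 of the 16 were called with the block.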

How the data were processed

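The authors deposited log2 expression values, 1 per probe set and array, on a gene-based chip definition; the sources used here do not state the background correction or normalization. Of 16539 probe sets, 64 were controls and 15780 carried 1 gene symbol. The 9496 genes at or above the 40th percentile of mean level over 12 arrays were fitted as group means with limma 3.58.1 in R 4.3.3 (8 residual degrees of freedom) with a two-sided call threshold of 0.05 on the Benjamini-Hochberg adjusted p. Precision is limited by the number of arrays, which have no depth. No 2 arrays were identical.

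Same-number arrays of different groups correlated at 0.45 to 0.94 after removal of group means and others at -0.71 to 0.068. Removal of group means itself pulls the second range down where the first is above 0. The series text divides each preparation into Input and IP, and the numbers were taken to pair the samples. Between genotypes this pairing rests on the correlations alone. The replicate block took the preparation (IP against Input, specific enrichment; 4 degrees of freedom) or the number (between genotypes; 6). Values printed as ± SE are from the fit without a block, so they include the spread between numbers. Named in each comparison are called members, those called with the block and, up to 6, those with the smallest p. Further members are named where they belong to a count. Members, lists and alternatives were chosen with earlier results of these data known. The fits were tested on simulated data with independent arrays or with a number effect common to all 4 groups. Number effects that differ between IP and Input were not simulated. Promoters are from RefSeq (GRCm38.p6). Figures used Python 3.11.15 and matplotlib 3.10.9.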

Additional observations from a re-analysis of the deposited data

How the results depend on the processing

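For specific enrichment, KO Input against WT Input and WT IP against KO IP, 0 members were called under every alternative run: no filter, a filter at the 60th percentile, quantile normalization, limma-trend, the arrays of a comparison alone (not run for specific enrichment, which needs all 4 groups), 3 fits with a replicate block, each of the 12 arrays left out, and, chosen after seeing the data, each number left out. For WT IP against WT Input and KO IP against KO Input the replicate block called 1 member each (Srebf1 and Thrsp), and with quantile normalization as well 1 (Srebf1, 1.15, adjusted p = 0.0443) and 0. The block called 667 and 570 of all genes, and with quantile normalization 331 and 33. The block by number within each fraction called 6 and 6. It changed no other call, and leaving out arrays or numbers called 0. Quantile normalization, with or without the block, gave member medians of -0.024 for WT IP against WT Input and -0.085 for KO IP against KO Input. With 1 array left out the member median ran from 0.019 to 0.29 for specific enrichment, from -0.37 to 0.023 for WT IP against WT Input, from -0.49 to -0.16 for KO IP against KO Input, from -0.088 to 0.14 for KO Input against WT Input and from -0.026 to 0.26 for WT IP against KO IP. With a number left out the last 3 ran from -0.39 to -0.20, from -0.082 to 0.13 and from -0.0027 to 0.14. Directions of named members turned in 4 cases, none of them called: Elovl6 in KO Input against WT Input (-0.17 without WT Input replicate 1, -0.049 without KO Input replicate 3; range -0.17 to 0.80), and in specific enrichment Fdft1 (0.035 without WT IP replicate 2; range -0.63 to 0.035) and Lpin1 (-0.17 without KO IP replicate 3; range -0.17 to 1.15). The cause was not tested.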
